A study of Rattus norvegicus and Mus musculus with 17 samples.

Results

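The genes described here are 9 apolipoproteins, Apoa1, Apoa2, Apoa4, Apoa5, Apob, Apoc3, Apoe, Apoh and Apom, and the paraoxonase Pon1. They were chosen by symbol, 10 genes of the 11532 listed in any of 3 deposited tables of mouse or rat liver RNA-seq. A table lists a gene only where the deposited p-value of its comparison is below 0.05, so genes outside a table are not analysed here for that comparison, and those inside had already passed a test on the same libraries. All 10 were listed for the Morris hepatoma comparison in rats (of 9082 genes). For the DEN comparison in mice 7 were listed (of 4649), without Apob, Apoc3 and Apoe. Only Apoa4 was listed for regenerating rat liver (of 2093).

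Values are RPKM, reads scaled to gene length and library size, which allows levels to be compared between genes. The 17 libraries form 5 groups, all from male animals. Both mouse groups were C57BL/6 mice given the liver carcinogen diethylnitrosamine (DEN, 50 mg/kg) at 14 days of age and, 30 days later, TCPOBOP (2 mg/kg), an agonist of the xenobiotic receptor CAR. Livers called before tumours (n = 3) were collected at an age of 5 months, and those with tumours (n = 3) at 8 months. Tumour presence and age therefore cannot be told apart, and neither mouse group was untreated. The rat groups were untreated liver of ACI rats (n = 3), tumours taken 2 weeks after MH3924a Morris hepatoma cells were injected into the liver of ACI rats at 10 weeks of age (n = 4), and the remaining liver of rats aged 10 to 12 weeks, 24 hours after partial hepatectomy (n = 4). The hepatoma stands for a single transplanted cell line, grown in a host liver. Nothing states that libraries of a group came from separate animals, so the spread behind each p-value may be technical.

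Apolipoproteins are the protein part of plasma lipoproteins and come mainly from the liver and the intestine. Apob is the structural protein of very low and low density lipoprotein, whereas Apoa1 and Apoa2 are the main proteins of high density lipoprotein (HDL). Apoa4, Apoa5 and Apoc3 act on triglyceride-rich particles: Apoa5 promotes and Apoc3 inhibits their clearance. Apoe is the ligand for uptake by receptors of the low density lipoprotein receptor family and is also made by macrophages. Apom carries sphingosine 1-phosphate on HDL, Apoh is the phospholipid-binding beta-2-glycoprotein I, and Pon1 is an HDL-bound esterase and lactonase made by hepatocytes. Apoa1, Apoc3, Apoa4 and Apoa5 lie next to each other in this order, between Sik3 and Zpr1, on rat chromosome 8 (RefSeq, GRCr8) and mouse chromosome 9 (GENCODE M21).

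RefSeq promoter windows of the rat build GRCr8 matched 6 members, Apoa4, Apoa5, Apoe, Apoh, Apom and Pon1. The 250 bases before the start are shown for the 4 of these that passed the test in mice, with Apoa4 and Apom among those that rose and Apoa5 and Pon1 among those that fell. No mouse promoter was searched, and in rat hepatomas all 4 genes were lower than in controls. The windows are chr8:55435529-55435778 (plus strand) for Apoa4, chr8:55457621-55457870 (plus) for the upstream start of Apoa5, chr20:3695368-3695617 (plus) for Apom and chr4:34287861-34288110 (minus) for Pon1. Capitals mark matches, on either strand, to 5 motifs.
Apoa4: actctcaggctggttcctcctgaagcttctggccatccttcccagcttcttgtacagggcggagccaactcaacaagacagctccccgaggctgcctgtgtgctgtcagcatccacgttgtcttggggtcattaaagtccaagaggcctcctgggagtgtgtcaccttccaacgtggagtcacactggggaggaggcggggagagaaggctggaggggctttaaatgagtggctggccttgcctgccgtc
Apoa5: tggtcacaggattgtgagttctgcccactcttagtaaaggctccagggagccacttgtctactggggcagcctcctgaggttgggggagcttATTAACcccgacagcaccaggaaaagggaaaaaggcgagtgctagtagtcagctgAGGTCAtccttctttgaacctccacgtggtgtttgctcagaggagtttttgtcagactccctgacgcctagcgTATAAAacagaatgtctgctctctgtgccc
Apom: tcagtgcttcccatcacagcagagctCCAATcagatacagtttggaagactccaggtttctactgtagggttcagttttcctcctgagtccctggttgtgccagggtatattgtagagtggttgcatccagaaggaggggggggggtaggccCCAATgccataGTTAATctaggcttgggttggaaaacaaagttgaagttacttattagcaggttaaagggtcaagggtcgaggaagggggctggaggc
Pon1: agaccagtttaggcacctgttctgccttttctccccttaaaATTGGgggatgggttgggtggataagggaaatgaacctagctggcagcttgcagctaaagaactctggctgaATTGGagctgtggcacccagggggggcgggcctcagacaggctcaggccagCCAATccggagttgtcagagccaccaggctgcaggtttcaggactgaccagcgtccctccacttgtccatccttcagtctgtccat

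GTTAAT, a motif of hepatocyte nuclear factor 1, was found 158 bases before the Apoa5 start on the opposite strand and 87 bases before the Apom start. It occurs in 6.45% of all 33469 windows of this length. The Apoa5 window also held TATAAA, 30 bases before the start (12.9% of windows), and the nuclear receptor motif AGGTCA, 103 bases before it (14.1%). CCAAT matched at 2 places in Apom and 3 in Pon1 and is common (34.0% of windows). The HNF4-type motif CAAAGTNCA (1.06% of windows) matched none of the 4, and the Apoa4 window held none of the 5 motifs. No searched motifs overlapped in these windows, and a match is a description of the letters only.

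Relative depth, estimated from the step size of low values, was 0.943 to 1.21 times that of mouse library 1 before tumours and 1.02 to 1.18 times that of rat control library 1; absolute depth is unknown. Every result on hepatoma is touched by unequal rat libraries. Control library 3 stood apart from controls 1 and 2 in these genes, and hepatoma libraries 1 and 2 stood apart from 3 and 4 in hepatocyte markers. The summed RPKM of the 15 listed hepatocyte markers (of 22) was 126725 to 157171 in the controls, 1433 and 122 in hepatoma libraries 1 and 2, and 35591 and 29332 in libraries 3 and 4. In bulk tissue, fewer cells of a type and less RNA per cell cannot be told apart.

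In DEN mouse liver the listed genes moved in both directions. With tumours, the HDL proteins diverged: Apoa1 and the sphingosine carrier Apom rose by a factor of 2.48 and 3.28 in mean RPKM, and Apoa4 by 4.75, whereas Apoa2 fell to 0.471, Apoa5 to 0.384 and Pon1 to 0.105 of the earlier mean. Of the 7 listed members 3 were higher, 3 were lower and 1 did not pass (limma on log2(RPKM + 1), Benjamini-Hochberg adjusted p under 0.05). Over all 3684 genes tested, 67.3% were called, 17.9% higher and 49.5% lower, and the median log2 change was −0.56, beside −0.34 over the 7 members. The groups did not overlap in any of the 7, as in almost the whole table (24.9% of tested genes higher and 75.1% lower without overlap).

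Apoa1, the main HDL protein, was at 14236, 17017 and 19362 RPKM in the 3 libraries before tumours and at 46656, 39650 and 39215 with tumours. All 3 libraries with tumours were more than any library before them. The log2 change was 1.32 ± 0.18 (SE; limma adjusted p = 0.00241). Its HDL partner Apoa2 was at 18837, 23264 and 19943 RPKM before tumours and 9499, 12294 and 7441 with tumours, a log2 change of −1.11 ± 0.21 (limma adjusted p = 0.0111). The Apoa2 call was lost without library 2 before tumours (adjusted p = 0.057) and when library medians were set equal (adjusted p = 0.197), with the direction kept.

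The 2 HDL genes exchanged places. Apoa2 was the most abundant of the 7 in every library before tumours and Apoa1 in every library with tumours. The ratio of Apoa1 to Apoa2 RPKM, which does not depend on library scaling, was 0.756, 0.731 and 0.971 before tumours and 4.91, 3.23 and 5.27 with tumours. The mean ratio on the log scale was 5.38-fold higher with tumours, with no overlap. The two-sided exact permutation p over these 6 libraries was 0.1, the smallest that 3 against 3 libraries can give. Since Apoa1 rose and Apoa2 fell without overlap, this separation and its p were fixed in advance and add no support.

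**Figure D1:**
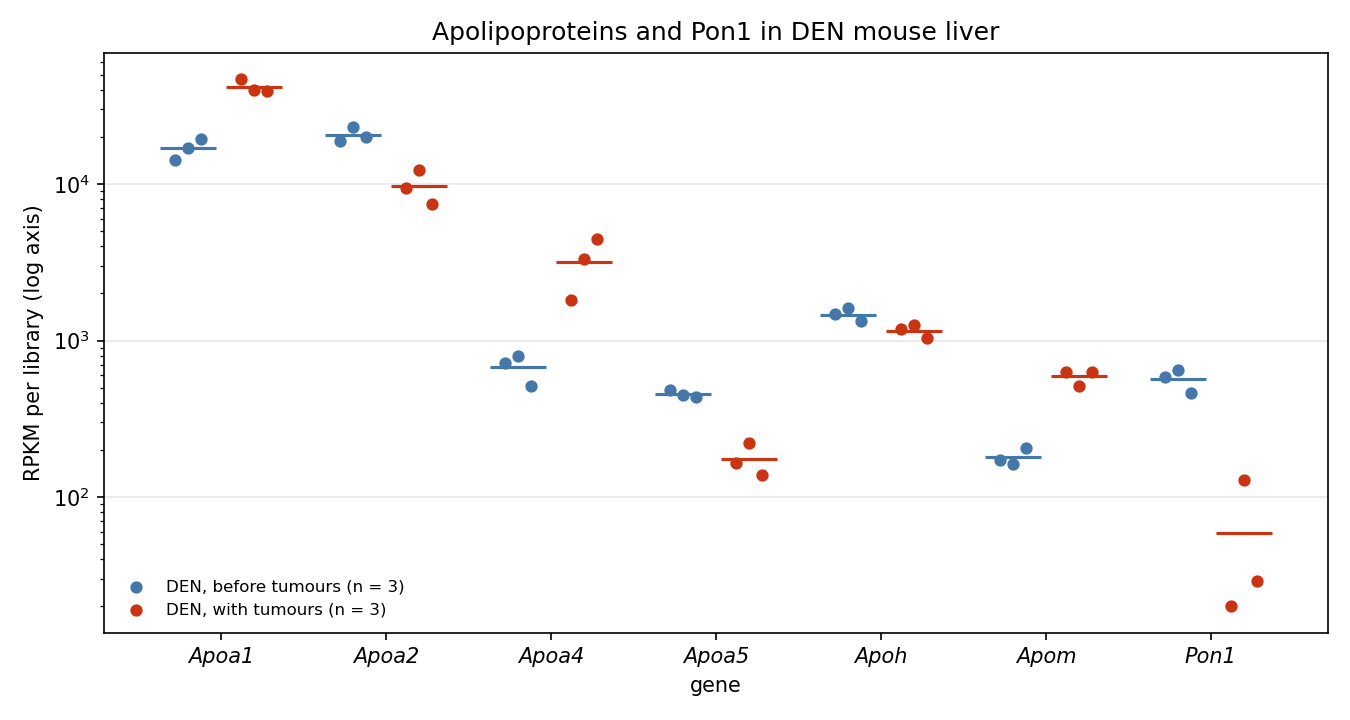
RPKM of the 7 listed members (log axis) in each DEN mouse library, with a point per library and a bar at the arithmetic mean; blue is before tumours (n = 3) and red with tumours (n = 3). Apoa1, Apoa4 and Apom were higher with tumours, Apoa2, Apoa5 and Pon1 lower, and the Apoh groups lay close to each other.

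Apoa4, a protein of triglyceride-rich particles and HDL, had the largest change upwards among the members. It was at 714, 795 and 509 RPKM before tumours and at 1802, 3308 and 4484 with tumours. The libraries with tumours were spread 2.49-fold among themselves, yet all exceeded the earlier ones (log2 change 2.17 ± 0.33, limma adjusted p = 0.00524). Apom went from 173, 162 and 207 RPKM to 630, 515 and 633, with narrow spread in both groups (log2 change 1.71 ± 0.17, limma adjusted p = 0.000612). Apoa1, Apoa4 and Apom kept their calls in each of the 6 fits that left out a library and under both other scalings. Under quantile normalization the log2 change of Apoa1 was smaller, 0.69, and those of Apoa4 and Apom were larger, 3.04 and 2.62.

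Apoa5, which promotes triglyceride clearance, was at 480, 448 and 435 RPKM before tumours and 165, 221 and 138 with tumours. Its log2 change was −1.40 ± 0.19 (limma adjusted p = 0.00258), and it was lost under quantile normalization (adjusted p = 0.134). Apoa4 and its neighbour on the chromosome, Apoa5, thus moved in opposite directions. Both overlap antisense genes in GENCODE M21 (Gm10680 for Apoa4, Gm47544 for Apoa5), and because use of strand in the counting is not stated, reads of the partners cannot be told apart from theirs.

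Pon1 had the largest fall of the members. It was at 584, 644 and 465 RPKM before tumours and at 20.0, 128 and 29.0 with tumours, the 38th lowest log2 change of 3684 genes (−3.69 ± 0.64, limma adjusted p = 0.0137). Library 2 with tumours kept the most Pon1, and the libraries with tumours were spread 6.40-fold. Without library 1 or 2 before tumours, or library 3 with tumours, the call was lost (adjusted p = 0.0501, 0.0513 and 0.106), although the log2 change stayed between −4.48 and −3.17 over all 6 left-out libraries. Apoh, the phospholipid-binding glycoprotein, was at 1467, 1602 and 1327 RPKM before and 1176, 1249 and 1041 with tumours and did not pass (−0.34 ± 0.16, limma adjusted p = 0.364). Its sign turned under median scaling (0.05) and under quantile normalization (0.80).

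Some hepatocyte markers were called higher and none was called lower. The summed RPKM of the 9 listed hepatocyte markers (of 22) was 43366 to 49542 before tumours and 117940 to 136569 with tumours, and 4 of the 9 were higher, 0 lower and 5 not past the threshold. Over all tested genes 17.9% were called higher and 49.5% lower. Of all 9, 5 were higher and 4 lower without overlap, as in almost the whole table (24.9% higher and 75.1% lower). Vtn, Rbp4, Serpinc1 and Cps1 were at 0.703, 0.739, 0.662 and 0.464 of the earlier mean. None of these 4 passed (limma adjusted p = 0.0776, 0.16, 0.0692 and 0.135). The sum is mostly albumin and Ahsg. Albumin (Alb) alone was at 24699 ± 3706 RPKM (SD, n = 3) before and 83080 ± 3711 with tumours (limma adjusted p = 0.000612, lost under quantile normalization). The part of these levels in the rise of Apoa1, Apoa4 and Apom was not tested, and Apoa2, Apoa5 and Pon1 fell in the same libraries.

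Around the members, the other lipoprotein genes were mixed in the DEN comparison. Of 13 other apolipoproteins and paraoxonases 6 were listed and tested, with 1 higher, 3 lower and 2 not past the threshold (median log2 change −0.65). Over all tested genes 17.9% were called higher and 49.5% lower, with a median of −0.56. Apoc2, the activator of lipoprotein lipase, was the member of this list that rose, from 560, 1027 and 543 RPKM to 6065, 2845 and 6318 (log2 change 2.81 ± 0.37, limma adjusted p = 0.00293). Apoc4, a minor component of triglyceride-rich particles, fell (−0.62, limma adjusted p = 0.0412), but lost its call without each of the 6 libraries in turn and turned to 0.53 under quantile normalization. Apol9b (−0.99, limma adjusted p = 0.0244) has a near-identical copy, Apol9a, so its reads may be shared, and its call was lost without each library before tumours in turn and without library 1 with tumours (adjusted p = 0.0603 to 0.105). Under median scaling and quantile normalization the Apol9b change was −0.59 and −0.22, past the threshold in neither.

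Lipoprotein lipase itself, Lpl, rose from 38.4, 34.0 and 21.2 RPKM to 131, 148 and 64.5 (log2 change 1.80 ± 0.35, limma adjusted p = 0.0156). In its list 3 of 7 genes were listed, 1 higher, 1 lower and 1 not past; the lower was Creb3l3, a liver transcription factor that raises lipase activators (−1.01, limma adjusted p = 0.00882, lost under both scalings). Of the genes of HDL maturation, 7 of 9 were listed and 6 tested, with 1 higher, 2 lower and 3 not past. Beside both lists, 17.9% of all tested genes were called higher and 49.5% lower. The HDL receptor Scarb1 rose (0.89, limma adjusted p = 0.0122, and 0.064 without library 2 before tumours; the change was 1.67 under quantile normalization). Hepatic lipase, Lipc, which hydrolyses HDL lipids, fell from 79.1, 81.6 and 87.9 RPKM to 5.18, 28.6 and 11.6 (−2.67 ± 0.51, limma adjusted p = 0.0178); its call was lost without each library before tumours in turn and without library 3 with tumours (adjusted p = 0.0647 to 0.106). Pdzk1, the adaptor that stabilises Scarb1 in the liver, fell (−0.89, limma adjusted p = 0.022), a call lost without the same libraries (adjusted p = 0.0552 to 0.099) and under both scalings.

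Of the genes of particle assembly and secretion 4 of 13 were listed, 1 higher, 2 lower and 1 not past. Over all tested genes 17.9% were called higher and 49.5% lower. Sort1, a sorting receptor that binds Apob, rose at a low level, from 1.72 ± 0.35 to 3.52 ± 0.13 RPKM (SD, n = 3; limma adjusted p = 0.00858), a log2 change of 0.74 that was 1.13 under median scaling. Sar1b, the small GTPase needed to export large lipoproteins from the endoplasmic reticulum, fell from 255 ± 96.9 to 76.5 ± 17.7 RPKM (limma adjusted p = 0.0127). Its call was lost under quantile normalization and without libraries 1 or 2 before tumours or library 3 with tumours (adjusted p = 0.0545, 0.0569 and 0.0512). Cideb, a lipid droplet protein of very low density lipoprotein lipidation, fell by 0.75 on the log2 scale (limma adjusted p = 0.01), a change that was −0.36 and not past the threshold under median scaling (adjusted p = 0.321) and turned to 0.0163 under quantile normalization. Lrp1, a remnant receptor, was the only gene listed of 11 of uptake and fell by 0.87 (limma adjusted p = 0.00771, lost under both scalings).

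Of 19 regulators of apolipoprotein genes 9 were listed and 8 tested, with 7 lower and 1 higher, where 49.5% of all tested genes were called lower and 17.9% higher (median log2 change −0.90, beside −0.56 over all tested genes). The bile acid receptor Nr1h4 fell from 71.9, 88.9 and 49.1 RPKM to 12.0, 24.9 and 15.6 (−1.96 ± 0.29, limma adjusted p = 0.00487). The carbohydrate sensor Mlxipl fell by 1.65 (limma adjusted p = 0.00329; −1.01 under quantile normalization) and the orphan receptor Esrra by 1.10 (limma adjusted p = 0.00198; −0.70 under median scaling). The regulator that was higher was Rora (0.75, limma adjusted p = 0.0352), named after its values were seen because it was the only one of its direction. Its call was lost without library 1 or 2 before tumours and library 1 or 3 with tumours (adjusted p = 0.101 to 0.149).

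In rat liver the question was how hepatoma tissue differs from untreated liver. All 10 members were lower in every hepatoma library than in every control library, and none was higher. Apoa2, Apoe and Pon1 fell past the threshold, to 0.0125, 0.0975 and 0.0232 of the control mean. The other 7 did not pass, with limma adjusted p from 0.0517 for Apoc3 to 0.314 for Apoa1. Over all 8233 genes tested, 94.3% were called, 8.73% lower and 85.5% higher, the median log2 difference was 1.58, and 11.4% were lower and 87.2% higher without overlap. The members' median was −5.06. Against so large a shift upwards, the members lay at the other end of the table: Apoa2 had the 2nd and Pon1 the 5th lowest value of 8233, and Apoe, the member nearest to the rest, the 189th.

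Apoa2 was at 5348, 5646 and 570 RPKM in the controls and at 30.0, 2.65, 46.6 and 114 in the hepatomas. The highest hepatoma library was still far below the lowest control, library 3 (log2 difference −6.53 ± 1.47, limma adjusted p = 0.0171). Pon1 was at 1824, 1787 and 245 RPKM in the controls and 10.7, 0.227, 55.3 and 53.1 in the hepatomas (−6.01 ± 1.65, limma adjusted p = 0.0375). Apoe, the most abundant member in controls 1 and 2, was at 11180, 10972 and 4372 RPKM and at 167, 190, 1592 and 1498 in the hepatomas (−3.95 ± 1.04, limma adjusted p = 0.0284).

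These 3 calls did not hold when single libraries were left out, although the log2 differences stayed large. They ran from −7.61 to −5.55 for Apoa2, −4.48 to −3.40 for Apoe and −6.96 to −4.82 for Pon1. Each call was lost without control library 1, control library 2 or hepatoma library 1, with adjusted p of 0.0804, 0.0806 and 0.0528 for Apoa2, 0.114, 0.115 and 0.0718 for Apoe, and 0.148, 0.148 and 0.105 for Pon1. Without control library 3, Apoe and Pon1 lost their calls (adjusted p = 0.0619 and 0.0579). Conversely, Apoc3 and Apom passed without hepatoma library 2, 3 or 4. The number of members called ran from 0 to 5 over the 7 left-out libraries, while all 10 stayed lower in each of these fits and under both scalings.

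**Figure D2:**
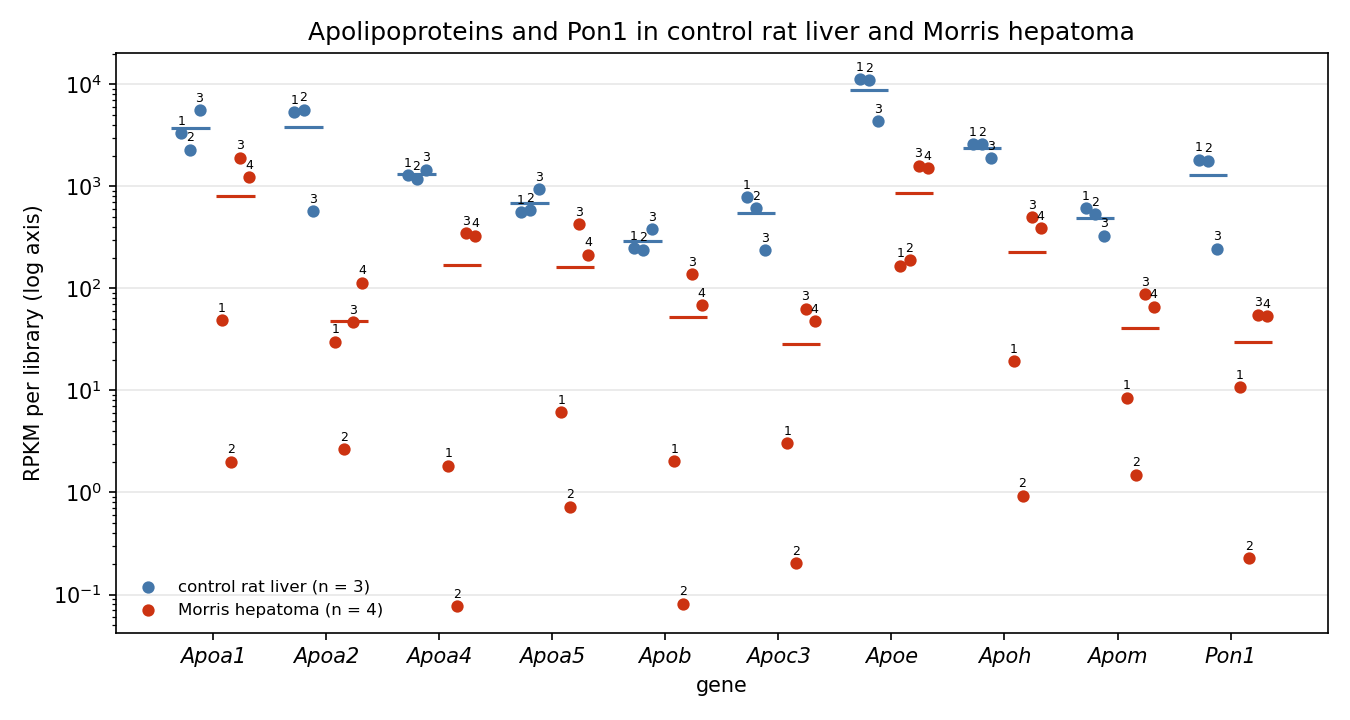
RPKM of the 10 members (log axis) in each rat library, numbered; blue is control liver (n = 3), red Morris hepatoma (n = 4), and bars are arithmetic means. No gene has overlapping groups; hepatoma libraries 3 and 4 lie above 1 and 2, and control library 3 lies apart for Apoa2 and Pon1.

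Apoa1 was at 3313, 2293 and 5541 RPKM in the controls and 49.0, 2.00, 1914 and 1224 in the hepatomas (−4.67 ± 2.47, limma adjusted p = 0.314). Hepatoma library 3 came near the lowest control, control library 2, at 83.5% of it, and hepatoma library 4 was at 53.4%. Apoa5 was at 558, 584 and 934 RPKM against 6.11, 0.724, 425 and 214 (−4.37 ± 2.16, limma adjusted p = 0.263). Apob, the structural protein of very low density lipoprotein, was at 247, 239 and 380 RPKM against 2.03, 0.0814, 137 and 68.8 (−4.41 ± 1.92, limma adjusted p = 0.185). For these 3 genes control library 3 was the highest control and the spread among hepatomas was 587-fold or more.

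Apoa4 was at 1278, 1189 and 1455 RPKM against 1.83, 0.0768, 348 and 328 (−5.75 ± 2.49, limma adjusted p = 0.181). It had the widest spread among hepatoma libraries of all members, 4532-fold. That spread rests on the 0.0768 RPKM of hepatoma library 2, a level where single reads matter. Apoh was at 2607, 2573 and 1898 RPKM against 19.5, 0.930, 497 and 388 (−5.47 ± 2.14, limma adjusted p = 0.132). Apoc3, the inhibitor of triglyceride clearance, was at 786, 614 and 236 RPKM against 3.03, 0.204, 63.3 and 48.0 (−5.45 ± 1.63, limma adjusted p = 0.0517). Apom was at 616, 534 and 329 RPKM against 8.46, 1.49, 87.7 and 66.3 (−4.62 ± 1.39, limma adjusted p = 0.0531). In the authors' deposited table, which compares arithmetic means, the same genes have smaller log2 ratios, such as −2.95 for Apoa4 and −2.22 for Apoa1, since the mean of 4 hepatomas follows libraries 3 and 4.

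Within the hepatomas, libraries 1 and 2 had lost nearly all of the members' RNA. Library 1 held 0.14% (Apoa4) to 1.89% (Apoe) of the control mean, and library 2 held 0.00587% (Apoa4) to 2.15% (Apoe), where the median over the 10 members was 0.0466%. The lowest values of library 2, such as 0.0768 RPKM for Apoa4 and 0.0814 for Apob, lie where single reads matter, so their percentages are imprecise. In library 1 Apom (1.72%) and Apoa1 (1.32%) were close to Apoe, whereas in library 2 the next member, Apom, was at 0.303%. Of the summed RPKM of the 10 members, Apoe, already the most abundant in controls 1 and 2, made up 167 of 297 in library 1 and 190 of 199 in library 2. Macrophage markers, 4 of 12 listed, summed to 132 to 160 RPKM in controls and 744 to 1353 in hepatomas, with the highest sum in library 2. The hepatoma sums were mostly Lyz2, at 611, 1232, 715 and 581 RPKM. In library 2 Cd68 (101) and Cd163 (14.4) were not at their highest, and Clec4f (6.02) was at its lowest among the hepatomas. The part of macrophages in the Apoe level was not tested. Libraries 3 and 4 held 1.21% (Apoa2) to 61.4% (Apoa5) and 2.96% (Apoa2) to 33.0% (Apoa1) of the control mean.

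The pattern across members in hepatoma libraries 3 and 4 depended on which control they were set against. Control library 3 differed from the mean of controls 1 and 2 in both directions: Apoa1 was 1.98, Apoa5 1.64, Apob 1.56 and Apoa4 1.18 times as high, whereas Apoa2 was at 0.104, Pon1 at 0.136, Apoc3 at 0.337 and Apoe at 0.395 of it. Against control library 3 alone, hepatoma library 4 held a similar percentage of every member, 18.1% (Apob) to 34.3% (Apoe), with an SD of 0.25 on the log2 scale. Against control library 1 the range was 2.13% to 38.3% (SD 1.48), and against library 2 it was 2.02% to 53.4% (SD 1.53).

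Hepatoma library 3 showed the same feature, with Apoa2 as the exception. Against control library 3 it held 22.5% (Pon1) to 45.5% (Apoa5) of 9 members and 8.18% of Apoa2; against control library 1 the range over all 10 was 0.872% to 76.1%. The hepatocyte markers behaved alike: against control library 3 the 15 listed markers lay between 22.7% and 36.3% in hepatoma library 3 and between 18.5% and 30.8% in library 4, and against control library 1 between 8.46% and 55.2%, and between 7.18% and 41.3%. Those ratios are descriptions of single libraries, with no test. What sets control library 3 apart is not given in the labels.

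**Figure D3:**
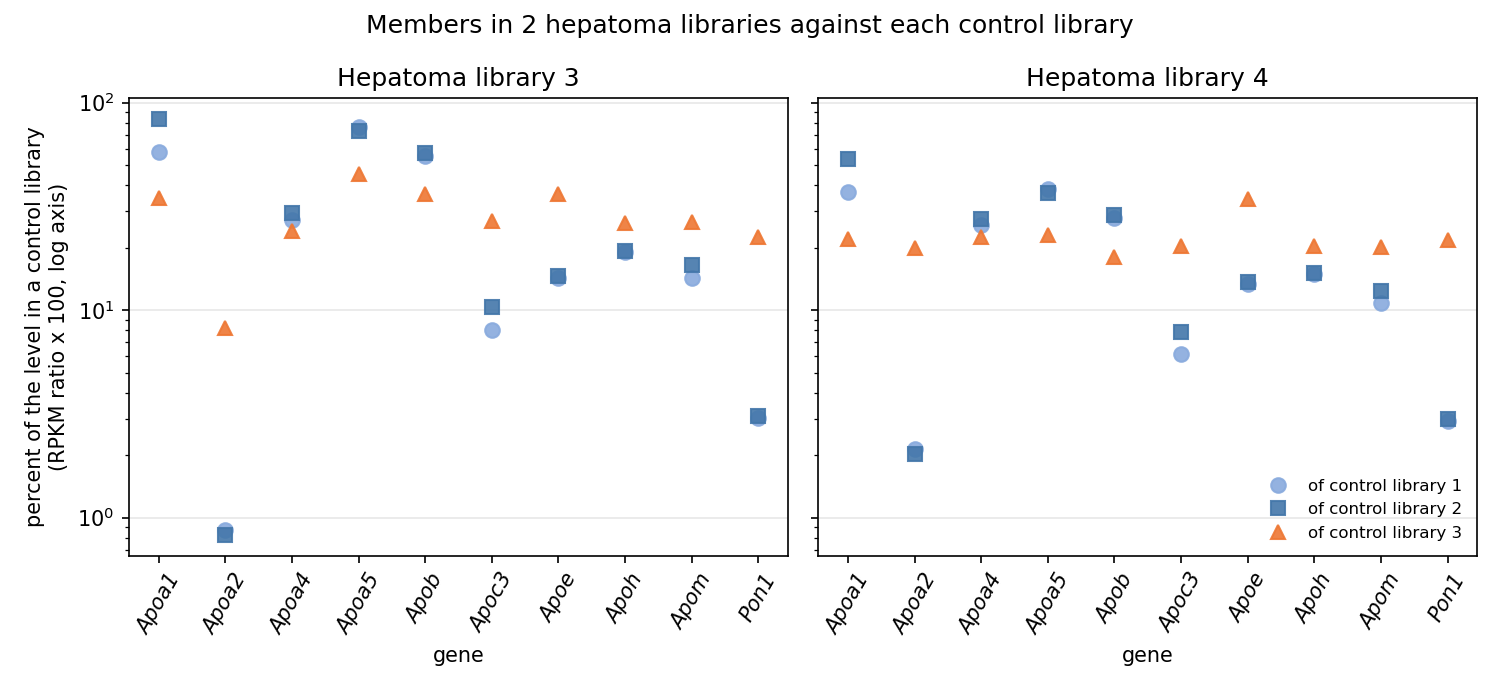
Level of each member in hepatoma libraries 3 and 4 as a percentage of its level in control library 1 (circles), 2 (squares) and 3 (triangles), on a log axis. The triangles of hepatoma library 4 lie between 18.1% and 34.3%, whereas circles and squares spread from about 2.02% to 53.4%.

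The ratio of Apoa1 to Apoa2 shows the same feature within a library. It was 0.619 and 0.406 in controls 1 and 2 but 9.71 in control 3, and 1.64, 0.755, 41.1 and 10.7 in the hepatomas. The groups overlapped, and the two-sided exact permutation p was 0.286, where 3 against 4 libraries allow 0.0571 at the lowest. The difference of mean log2 ratios, 1.84, became 3.27 without control library 3, 1.28 and 0.98 without control libraries 1 and 2, and 0.81 without hepatoma library 3.

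**Figure D4:**
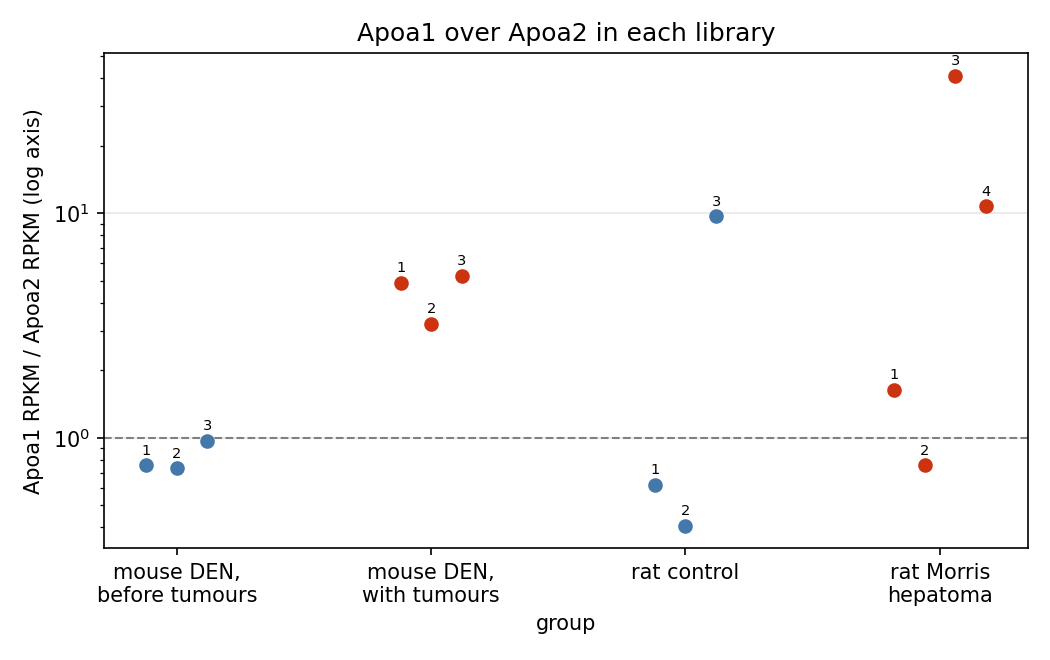
Ratio of Apoa1 to Apoa2 RPKM in each numbered library (log axis), with a dashed line at 1. The mouse groups are separate, 0.731 to 0.971 before tumours and 3.23 to 5.27 with tumours; in rats control library 3, at 9.71, lies among the hepatomas.

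Non-members whose profile over the 7 libraries was most like the members' mean were Hsd3b5, a steroid reductase of male rodent liver, Itih1, an inter-alpha-trypsin inhibitor heavy chain, and the cytochrome P450 Cyp2a2. Their root mean square differences from the centred mean profile were 0.161, 0.167 and 0.193 on the log2 scale, less than that of any single member (0.37 for Apoc3 to 1.44 for Apoa2). They were picked as the closest of all tested non-members, so small differences follow from the search and were not tested. Hsd3b5 was at 523, 573 and 268 RPKM in the controls and 4.20, 0.0561, 89.5 and 57.6 in the hepatomas. In mice the mean profile of members that moved in opposite directions was nearly flat, and the closest genes over 6 libraries were Vdac3, Cnbp and 4933411k20rik (0.101, 0.102 and 0.102).

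Other lipoprotein genes in the hepatomas differed from controls in both directions, and the lists were not tested against each other. Of 13 other apolipoproteins and paraoxonases 10 were listed, with 6 lower, 0 higher and 4 not past the threshold (median log2 difference −4.42). Over all tested genes 8.73% were called lower and 85.5% higher, with a median of 1.58. Apoc1, an exchangeable apolipoprotein that inhibits lipid transfer and uptake, was at 9146, 8367 and 3097 RPKM in controls and 106, 25.5, 475 and 369 in hepatomas (−5.37 ± 1.13, limma adjusted p = 0.0117). The intracellular paraoxonase Pon2 fell less, from 132, 132 and 80.1 RPKM to 18.5, 32.1, 61.1 and 38.6 (−1.67 ± 0.38, limma adjusted p = 0.00615; −3.33 and −2.65 under the scalings). Apon fell by 5.23 on the log2 scale (limma adjusted p = 0.0172). The Apoc1 call was lost without control library 1 or 2 (adjusted p = 0.0577 and 0.058), and that of Apon without either of these or hepatoma library 1 (0.0794, 0.0803 and 0.0514).

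Genes of uptake were mostly higher, 5 of the 8 listed of 11, with 2 lower and 1 not past, where 85.5% of all tested genes were higher. Vldlr, the very low density lipoprotein receptor, was at 0.001 (no reads), 0.11 and 0.145 RPKM in controls and 3.85, 3.09, 4.14 and 3.70 in hepatomas (limma adjusted p = 2.06e-06, and 0.0869 under median scaling). The heparan sulphate proteoglycan Sdc1 was 1.23 higher on the log2 scale (limma adjusted p = 0.00227), with the sign turned under median scaling (−0.43) and the call lost under quantile normalization. Lpl rose from 1.23, 0.199 and 3.57 to 10.9, 12.9, 28.5 and 18.4 RPKM (2.93 ± 0.51, limma adjusted p = 0.00296, lost under both scalings).

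Hepatic lipase, Lipc, fell from 229, 240 and 52.7 to 2.38, 0.0627, 21.2 and 12.3 RPKM (limma adjusted p = 0.0347). Its call was lost without each control library in turn and without hepatoma library 1 (adjusted p = 0.0553 to 0.14). Over all tested genes 8.73% were called lower and 85.5% higher. In the lipase list 3 of 7 were listed, 1 higher, 1 lower and 1 not past. Of HDL maturation 4 of 9 were listed, 2 lower and 2 not past; Pdzk1 fell by 1.59 (limma adjusted p = 0.00112; −3.25 and −3.05 under the scalings).

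Of assembly and secretion 7 of 13 were listed, with 2 higher, 4 lower and 1 not past (median −1.80). Over all tested genes 8.73% were called lower and 85.5% higher. Sar1b fell from 159 ± 24.5 to 54.5 ± 15.1 RPKM (limma adjusted p = 0.000538; log2 −1.56, and −3.22 and −2.38 under the scalings), and Sort1 rose from 1.19 ± 0.35 to 12.4 ± 3.1 RPKM (limma adjusted p = 7.41e-06; log2 2.59, and 0.93 and 0.91 under the scalings). Tango2, a gene linked to secretory transport, was 0.98 higher, but −0.68 and −0.69 under median scaling and quantile normalization, past the threshold in both directions. Of 19 regulators 11 were listed and 10 tested, with 5 higher, 3 lower and 2 not past. Nr2f1 and Nr2f2, the COUP transcription factors that can repress apolipoprotein promoters, were 1.93 and 1.47 higher (limma adjusted p = 1.95e-05 and 0.000261), and Esrra 1.47 higher (3.84e-05). All 3 lost their calls under both scalings, where Nr2f2 and Esrra turned to small negative values.

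In regenerating liver the only listed member was Apoa4, and it fell. Its level was 111, 139, 123 and 451 RPKM, where the controls had 1278, 1189 and 1455. The groups did not overlap, and library 4 was higher than the other 3, which lay close together. The log2 change of −2.92 ± 0.44 (limma adjusted p = 0.0225) was the lowest of 1703 genes tested, of which 22% were called, 0.763% lower and 21.2% higher, with a median of 0.53. Without overlap, 3.58% of tested genes were lower and 89.4% higher. The call was lost without control library 1, 2 or 3 (adjusted p = 0.108, 0.11 and 0.0572) and without regenerating library 1 or 2 (0.0545 and 0.0751), with the log2 change between −3.38 and −2.71 throughout. The same 3 control libraries serve both rat comparisons. Control library 3 was within 1.22-fold of the other controls for Apoa4.

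Hepatocyte markers were present in the regenerating libraries: 2 of the 22 hepatocyte markers were listed, summing to 16590 to 22921 RPKM in controls and 22780 to 24764 in regenerating liver, with neither past the threshold. Of the lipoprotein lists 10 genes were listed besides Apoa4 and tested, none called lower and 1 called higher. Over all tested genes 0.763% were called lower and 21.2% higher. Angptl4, a lipoprotein lipase inhibitor named after its values were seen, did not pass, but at 17.8, 14.0, 14.1 and 47.4 RPKM it was below all controls (69.0, 69.2 and 61.3) and had the 3rd lowest log2 difference (−1.66 ± 0.38, limma adjusted p = 0.0788). It passed without regenerating library 4 (adjusted p = 0.000756) and under median scaling and quantile normalization (0.0384 and 0.0474). The gene called higher was Rxra, the partner of nuclear receptors at apolipoprotein genes, at 30.0, 33.8 and 38.4 RPKM in controls and 54.8, 50.8, 74.1 and 53.6 in regenerating liver (limma adjusted p = 0.0485, lost under both scalings and without each library in turn except control library 3).

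The controls had identical values in both rat tables, so hepatoma and regenerating liver could be set against each other over 1752 genes listed in both, of which 1673 were tested. For Apoa4 the 2 groups overlapped: 1.83 and 0.0768 RPKM in hepatoma libraries 1 and 2 were below all regenerating libraries, 348 and 328 in libraries 3 and 4 were above 3 of the 4, and regenerating library 4, at 451, was above all hepatomas. The log2 difference of −2.83 ± 2.22 did not pass (limma adjusted p = 1), where 84.8% of tested genes were called, 80.8% higher and 4% lower. Over all tested genes 84.5% were higher and 5.92% lower without overlap. Leaving out single libraries moved the difference from −4.11 to −1.33, so the data do not show that the levels are alike.

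**Figure D5:**
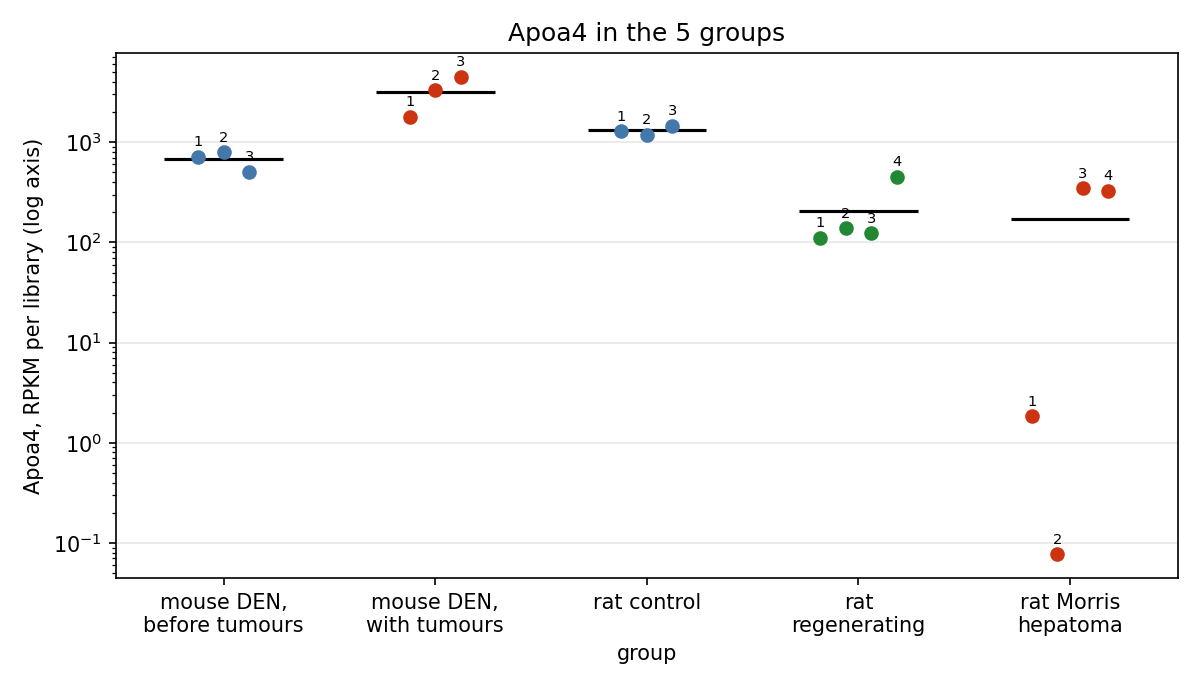
Apoa4 RPKM (log axis) in each numbered library of the 5 groups, with bars at arithmetic means; mouse and rat levels come from separate tables and are not compared. Apoa4 was higher with tumours in mice (1802 to 4484), and in rats all regenerating (111 to 451) and hepatoma libraries lay below the controls (1189 to 1455).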

How the data were processed

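Total RNA of liver or tumour was sequenced on Illumina libraries, per the labels' protocols; aligner, genome build, annotation, counting and use of strand are "not given in the sources used here". In 3 tables, the authors deposited RPKM values per library, that is reads normalised by them to gene length and library size, with 0.001 for no reads. The file headers name no unit, and it was read from the values. Per the file headers the authors also deposited the log2 ratio of group means and a p-value whose header names Holm; no listed gene had one of 0.05 or more. One line of the Morris table named no gene and was left out.

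Computed here: limma 3.58.1 (R 4.3.3; trend, robust, two-sided) on log2(RPKM + 1), keeping genes that reached 1 RPKM in a number of libraries equal to the size of the smaller group, with Benjamini-Hochberg adjustment counted over all annotated protein-coding genes (21951 mouse, 23148 rat) because the tables are preselected, threshold 0.05. Fold changes on this scale understate changes of low genes. All listed members passed the filter. Scripts were tested on simulated data. Alternatives were a pseudocount of 0.1, no filter, a filter at 5 RPKM, equal library medians, quantile normalization, adjustment over tested genes alone, a replicate block and leaving out each library. Of each list of lipoprotein genes the text names up to 3 genes with the smallest adjusted p past the threshold per comparison, plus Alb and the 3 genes most like the members' mean profile; of cell type markers it gives counts and sums. Values of some of these genes are not reported here. List genes are described for the comparisons with controls and for DEN. The members, lists and tests were chosen with earlier results of these data known.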

Additional observations from a re-analysis of the deposited data

Results flagged for a closer look

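Apoa4 in regenerating liver was flagged because a single library stood far from the other 3: library 4 was at 451 RPKM, beside 111, 139 and 123, a gap of 0.919 of the group's range, above Dixon's 95% critical value for 4 samples. Over the members 11 groups of 4 libraries were examined, and chance flags about 1 in 20 groups.

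Apoa1, Apoa4 and Apom were flagged because all mouse libraries with tumours were above those before tumours (log2 changes 1.32, 2.17 and 1.71), whereas all hepatoma libraries in rats were below all controls (log2 differences −4.67, −5.75 and −4.62). That difference between the models was not tested; they differ in species, in controls and in table.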

How the results depend on the processing

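The direction of every member was kept under all alternatives except that of Apoh in mice (0.054 with equal medians, 0.80 with quantile normalization, where it passed with an adjusted p of 0.0178). Over member results in DEN liver and in hepatoma against control, 192 alternatives left direction and call as they were, 22 lost a call and 15 gained one. The comparisons with regenerating liver are not in these counts. Other named genes turned in sign under scaling: Apoc4 (0.53) and Cideb (0.0163) in mice under quantile normalization; in hepatoma, Tango2 (−0.68 and −0.69), Esrra (−0.20 and −0.11) and Nr2f2 (−0.20 and −0.10) under equal medians and quantile normalization, and Sdc1 (−0.43) under equal medians. The scalings moved the median of tested genes from −0.56 to −0.16 and −0.16 in DEN, from 1.58 to −0.08 and 0.11 in hepatoma, from 0.53 to −0.09 and −0.07 in regenerating liver and from 1.47 to −0.07 and 0.06 for hepatoma against regenerating liver; whether all genes truly moved was not tested.

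Genes called in the DEN comparison numbered 2481 (658 higher, 1823 lower), 1361 with the filter at 5 RPKM, 1526 with equal medians (912 higher, 614 lower), 1472 with quantile normalization (883, 589) and 1347 to 2593 without single libraries. In hepatoma 7761 (7042, 719) became 4419 (2030, 2389) and 4392 (2514, 1878) under the scalings; the 3 members called became 5 with no filter, 5 with equal medians, 6 with adjustment over tested genes alone, and 0 to 5 without single libraries. For regenerating liver 374 (361, 13) became 153 with the filter at 5 RPKM, 78 (19, 59) and 67 (20, 47) under the scalings, 1626 with adjustment over tested genes alone, and 21 to 353 without single libraries; the Apoa4 change was −3.38 to −2.71 there. Hepatoma against regenerating liver went from 1419 (1352, 67) to 927 (445, 482) and 928 (495, 433).

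No pairing by replicate number was seen: deviations of same-numbered libraries correlated at −0.16 to −0.02 (DEN), −0.22 to −0.10 (hepatoma) and −0.29 to 0.10 (regenerating). With so few libraries per group, such correlations cannot exclude a pairing or a shared batch. With a replicate block 1972 DEN genes (6 members), 6967 hepatoma genes (0 members, Apoa2 at an adjusted p of 0.0668), 25 regenerating genes (Apoa4 −3.38, adjusted p = 0.00295) and 1425 genes between hepatoma and regenerating liver were called. No control has the number 4, so library 4 of the hepatomas and of regenerating liver did not contribute to the block fits against control. The Apoa4 change of −3.38 is therefore the one without regenerating library 4. Apart from Apoa4 in hepatoma library 2 (0.0768 RPKM) and similar low values, the members lay far above the level where single reads matter; the number of libraries limits precision.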

Other observations

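Counts for the cell type marker lists, given as higher, lower and not past the threshold of those tested, were as follows. In DEN liver, where 17.9% of all tested genes were called higher and 49.5% lower, macrophage and Kupffer cell markers had 2, 2 and 1 of 5 tested, stellate and fibroblast markers 2, 0 and 0, endothelial markers 3, 1 and 0, and cholangiocyte markers 1, 0 and 0. The single listed erythroid marker was lower, and the single T, B and NK cell marker was too low to be tested. In hepatoma, where 85.5% of all tested genes were called higher and 8.73% lower, stellate and fibroblast markers were 9 higher of 9, endothelial 4 of 4 and cholangiocyte 2 of 2, macrophage markers had 3 higher and 1 lower, the 1 lymphocyte marker tested was lower, and hepatocyte markers had 0 higher, 0 lower and 15 not past, with all 15 lower without overlap. In regenerating liver, where 21.2% of all tested genes were called higher, 2 of 4 stellate and 2 of 3 endothelial markers were higher and none was lower. Summed stellate and fibroblast markers were at 34.5 to 121 RPKM in rat controls and 2752 to 5447 in hepatomas, and endothelial markers at 23.4 to 35.8 and 127 to 175. The stellate and fibroblast sums in hepatomas were mostly Vim, at 4798, 4223, 1997 and 3701 RPKM.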
